A study of Mus musculus with 2 samples.

Results

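The genes described here are the detoxification enzyme families of the mouse, measured in epithelial cells of intestinal adenoma organoids. Members were taken by gene symbol: every gene whose symbol starts with Gst, Ugt, Sult, Aldh, Akr1, Cyp1, Cyp2, Cyp3 or Cyp4, with pseudogenes and Cyp46 to Cyp51 left out, and with its Ensembl identifier in both gene tables. This gave 199 of 27514 shared genes, namely 23 Gst, 22 Ugt, 21 Sult, 21 Aldh, 16 Akr1, 8 Cyp1, 57 Cyp2, 10 Cyp3 and 21 Cyp4 genes. The symbol rule also takes in cytochrome P450 genes of steroid, vitamin and bile acid metabolism, such as Cyp27a1 and Cyp39a1, and Gstcd, which only carries a glutathione S-transferase-like domain. The rule itself uses no measured value.

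The organoids came from adenomas of 17-week-old C57BL/6 mice of the genotype ApcMin/+, which carry 1 truncating allele of the tumour suppressor Apc. Both groups share this genotype. The control group was grown without the fusion protein RSPO1-Fc and the other group with it; the treatment protocol gives 10 µg/ml and the sample description gives the same figure in mg/ml. Each group is 1 droplet library of 3′ unique molecular identifier (UMI) counts, so no difference between the groups has a replicate check and no p-value was computed. The labels do not say how many mice, adenomas or cultures were pooled into a library, or which part of the intestine they came from.

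The enzymes work in sequence. Cytochrome P450s, aldehyde dehydrogenases (Aldh) and aldo-keto reductases (Akr1) oxidise or reduce foreign and endogenous compounds. Glutathione S-transferases (Gst), UDP-glucuronosyltransferases (Ugt) and sulfotransferases (Sult) then join the product to glutathione, glucuronic acid or sulfate, and efflux pumps carry the conjugate out of the cell. The intestinal epithelium is, beside the liver, a main site of these reactions, and many of the genes lie in clusters of related copies. R-spondin 1 is the ligand of the stem cell receptor Lgr5 and its relatives, and potentiates Wnt signalling.

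The control library held 2269 called cells, of which 1881 (82.9%) had at least 5 UMIs of the epithelial gene Epcam, and the RSPO1-Fc library held 2767, of which 2751 (99.4%) did. The median depth was 27736 UMIs per epithelial cell in control cells and 23548 with RSPO1-Fc, and no epithelial cell barcode was shared. The libraries differed in more than the treatment. The control epithelial cells held 100820 UMIs of the female transcript Xist and 0 of the Y-linked Ddx3y, against 3 and 2366 in the RSPO1-Fc cells. The posterior gut gene Hoxa9 had 10044 UMIs against 1, and the proximal gut gene Gata4 had 1 against 3090. The matrices also come from different Cell Ranger versions and barcode sets. The labels name the same reagent kit for both libraries, so a difference in chemistry is not given by them. Sex, gut segment, sequencing effort, matrix processing, any difference in chemistry and RSPO1-Fc therefore cannot be told apart in any difference given here. All 9 epithelial markers passed the filter in these cells. RNA of other cell types was also unequal: the summed level of 6 macrophage markers was 95.7 CPM (UMIs scaled so that both library totals are equal) in control epithelial cells and 4.13 in RSPO1-Fc cells, and that of 6 fibroblast markers was 57.5 and 0.97. Their part in the results was not tested.

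Levels are CPM, the UMIs of a gene summed over all epithelial cells of a library and scaled to the library's total over the shared genes. They are not divided by length, since 3′ counting gives 1 tag per molecule. A member was called higher or lower where its CPM differed at least 2-fold and its mean CPM over both libraries was at least 5. Brackets after a fold hold the exact 95% interval, which covers counting error only, and PCR and culture error are not in it.

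Of the 199 members, 63 had no UMI in either library, 86 had UMIs but stayed below the filter, and 50 passed it. Of these 50, 12 were at least 2-fold higher in the RSPO1-Fc library, 11 at least 2-fold lower and 27 neither. Over all 10047 genes past the same filter, 7.21% were at least 2-fold higher and 19.1% at least 2-fold lower. The members' share of lower calls (22%) thus lay near the background, and that of higher calls (24%) above it. A member near 0 in 1 library can pass only through the other and must then differ: 10 of the 50 were under 5 CPM in 1 library, and all 10 were called. They were the higher Cyp4b1, Cyp2c55, Cyp1b1, Gsta1, Aldh1a1, Gstm3 and Gstm2 and the lower Cyp2b10, Ugt2b35 and Aldh4a1. Of the other 40, 5 were higher and 8 lower, where all 8976 genes at 5 CPM or more in both libraries gave 5.7% and 14.2%. Under trimmed-mean (TMM) scaling, which moves every log2 ratio up by 0.34 before 1 CPM is added to both levels, the split of the 50 became 15 higher and 6 lower, beside 13.4% and 11.9% of all genes. The median log2 ratio of the 50 was 0.13, beside -0.19 over all genes, and 0.45 beside 0.13 under TMM scaling.

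**Figure D1:**
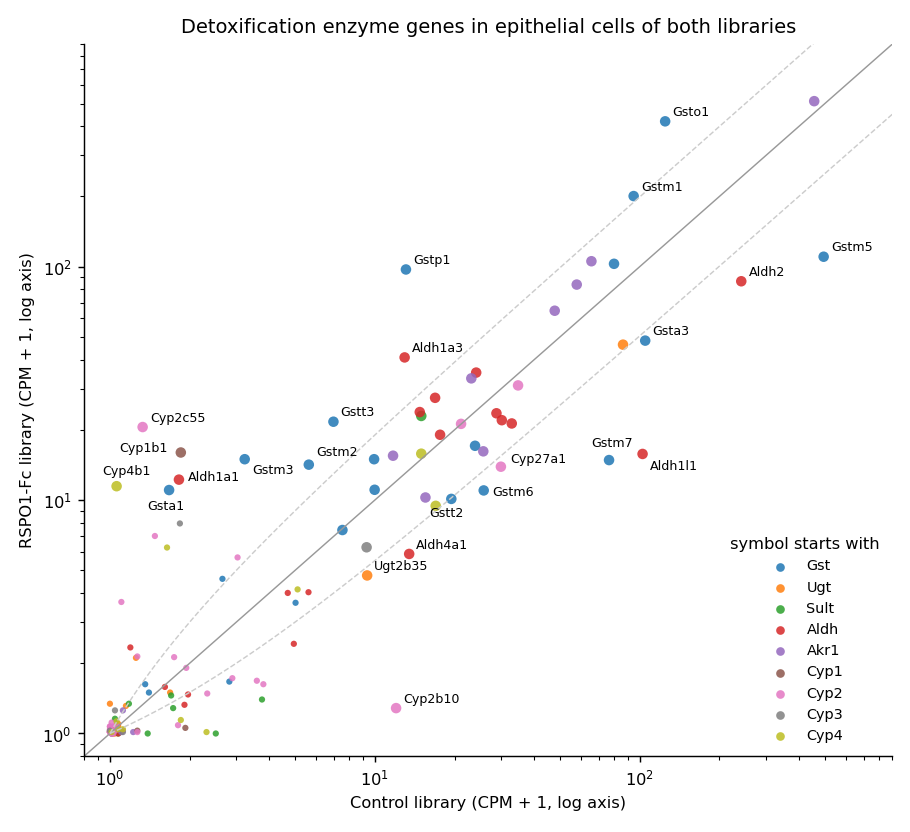
Level of each member with a UMI in the control library (x axis) and the RSPO1-Fc library (y axis), as CPM + 1 on log axes. Large points passed the filter, small points did not, colours mark families, the solid line is equality and the dashed curves a 2-fold difference in CPM. The 12 named genes above the upper curve and the 11 named genes below the lower one are the called members.

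Summed over all 199 members, the level was 2604 CPM in control cells and 2532 CPM with RSPO1-Fc. The families did not move alike. The Gst sum was 1095 CPM in control cells and 1119 with RSPO1-Fc, and the Akr1 sum 696 and 834. The Aldh sum was 541 and 332 CPM, which is 1.63-fold lower (1.60 to 1.66), and the Ugt sum 95.2 and 51.6, which is 1.85-fold lower (1.77 to 1.92). P450 and sulfotransferase sums were small: Cyp1 had 2.06 and 15.1 CPM, Cyp2 109 and 103, Cyp3 9.31 and 12.5, Cyp4 37.2 and 42.5, and Sult 20.4 and 23.6. Each sum rests on few genes. Gstm5 alone held 45.1% of the Gst UMIs of the control, whereas Gsto1 held 37.4% of those in the RSPO1-Fc library.

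**Figure D2:**
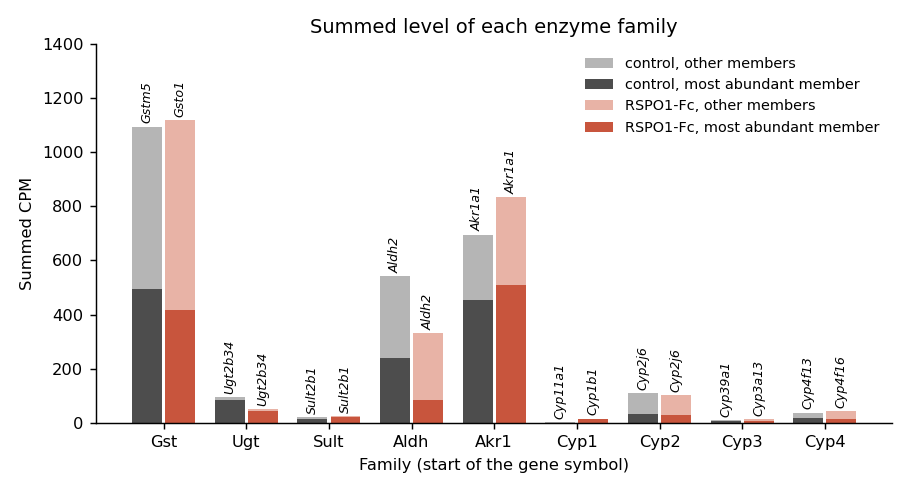
Summed CPM of each family in the control (grey) and RSPO1-Fc (red) library, with the dark part of each bar marking the most abundant member, whose symbol stands above the bar. The Gst sums are close (1095 and 1119 CPM) although the leading member changed from Gstm5 to Gsto1.

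The mu-class glutathione S-transferases carry the clearest pattern among the members. Their 7 genes lie side by side on chromosome 3, in the order Gstm5, Gstm7, Gstm6, Gstm3, Gstm2, Gstm1, Gstm4, within 149 kb (mm10, chr3:107895821-108044894). The first 3 genes in this order were lower in the RSPO1-Fc library, the next 3 were higher, and the last was level. Of the higher ones, Gstm3 and Gstm2 were under 5 CPM in control cells and passed the filter only through the RSPO1-Fc library. The call of Gstm3 follows from the filter, so the split does not rest on 6 free calls. This split inside 1 cluster is why the 250 bases before the start of 4 of these genes are printed here, 2 lower and 2 higher. Cyp1b1, a target gene of the aryl hydrocarbon receptor, and Cyp2b10, that of the xenobiotic receptor Nr1i3, stand beside them as the higher and the lower P450 with the best-known inducers. All are RefSeq sequences on GRCm38.p6, written 5′ to 3′ on the gene's strand. Capitals mark TGACNNNGC, the core of the antioxidant response element bound by Nrf2 (gene Nfe2l2), and GCGTG, the core of the xenobiotic response element bound by the aryl hydrocarbon receptor, on either strand (CACGC is GCGTG on the other strand).
Gstm5 (lower, chr3:107895604-107895853, plus strand): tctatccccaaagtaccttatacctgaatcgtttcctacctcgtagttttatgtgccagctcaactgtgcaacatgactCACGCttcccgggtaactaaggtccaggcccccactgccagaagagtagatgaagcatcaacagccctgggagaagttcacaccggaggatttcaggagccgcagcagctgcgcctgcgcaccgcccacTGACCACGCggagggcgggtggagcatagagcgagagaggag
Gstm7 (lower, chr3:107931818-107932067, minus strand): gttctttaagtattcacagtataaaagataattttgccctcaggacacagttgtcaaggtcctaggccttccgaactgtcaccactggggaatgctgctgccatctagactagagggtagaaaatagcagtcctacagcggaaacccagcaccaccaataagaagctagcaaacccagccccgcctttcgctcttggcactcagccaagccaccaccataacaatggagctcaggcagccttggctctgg
Gstm3 (higher, chr3:107969175-107969424, minus strand): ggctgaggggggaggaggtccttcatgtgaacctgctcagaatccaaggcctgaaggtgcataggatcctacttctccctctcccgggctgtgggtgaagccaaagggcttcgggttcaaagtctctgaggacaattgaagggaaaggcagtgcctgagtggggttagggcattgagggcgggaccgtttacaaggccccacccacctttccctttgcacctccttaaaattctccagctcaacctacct
Gstm1 (higher, chr3:108017974-108018223, minus strand): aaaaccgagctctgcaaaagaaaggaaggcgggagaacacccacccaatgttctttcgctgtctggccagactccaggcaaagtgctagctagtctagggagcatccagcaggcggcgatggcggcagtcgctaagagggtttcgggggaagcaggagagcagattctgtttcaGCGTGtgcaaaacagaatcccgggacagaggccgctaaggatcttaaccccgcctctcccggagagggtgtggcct
Cyp1b1 (higher, chr17:79715062-79715311, minus strand): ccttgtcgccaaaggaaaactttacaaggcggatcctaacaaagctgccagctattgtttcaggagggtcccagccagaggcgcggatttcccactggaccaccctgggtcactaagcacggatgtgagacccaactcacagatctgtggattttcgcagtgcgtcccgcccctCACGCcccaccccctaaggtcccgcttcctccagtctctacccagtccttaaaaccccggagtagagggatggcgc
Cyp2b10 (lower, chr7:25897408-25897657, plus strand): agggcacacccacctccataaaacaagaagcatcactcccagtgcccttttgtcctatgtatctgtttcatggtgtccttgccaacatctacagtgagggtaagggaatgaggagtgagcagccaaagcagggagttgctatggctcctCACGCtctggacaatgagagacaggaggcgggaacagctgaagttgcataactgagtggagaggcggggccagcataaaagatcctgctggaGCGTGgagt
In Gstm5 the antioxidant core TGACCACGC overlaps a xenobiotic core on the other strand, and a second xenobiotic core lies farther from the start. Gstm1 and Cyp1b1 hold 1 xenobiotic core each and Cyp2b10 holds 2, and Gstm7 and Gstm3 hold neither motif. The Gstm genes not printed, Gstm6, Gstm2 and Gstm4, hold neither motif in this window. RefSeq promoters matched 162 of the 199 members and 43 of the 50 past the filter. The antioxidant core was found in 0 of 11 higher, 2 of 9 lower and 1 of 23 other members, beside 10.2% of 27025 promoters of this length. The xenobiotic core was found in 3 of 11, 3 of 9 and 6 of 23, beside 28.2%. A match is only a run of letters in this window and was not tested for binding.

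Gstm5 (ENSMUSG00000004032, chr3:107895821-107898686) was the most abundant member of the control. It was measured at 494 CPM in control cells and 109 CPM with RSPO1-Fc, which is 4.52-fold lower (4.41 to 4.63). Its neighbour Gstm7 was at 75.6 CPM and 13.8 CPM, 5.46-fold lower (5.10 to 5.86), and Gstm6 was at 24.8 and 10.0 CPM, 2.48-fold lower (2.27 to 2.71). The next gene, Gstm3, was at 2.23 CPM in control cells and 14.0 CPM with RSPO1-Fc, 6.27-fold higher (5.27 to 7.50). Gstm2 was at 4.63 and 13.2 CPM, 2.85-fold higher (2.499 to 3.25). Gstm1 (ENSMUSG00000058135, chr3:108012255-108017973), the most abundant of the other 6, was at 93.9 and 200 CPM, 2.13-fold higher (2.06 to 2.19). All mu-class enzymes join glutathione to electrophiles, and the gene that supplied most of their transcripts differed between the libraries. Gstm5 held 70.4% of the cluster's CPM in control cells and 29.8% with RSPO1-Fc, and Gstm1 held 13.4% and 54.5%. Gstm4 was at 6.55 and 6.44 CPM, a fold of 1.02 (0.89 to 1.16).

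**Figure D3:**
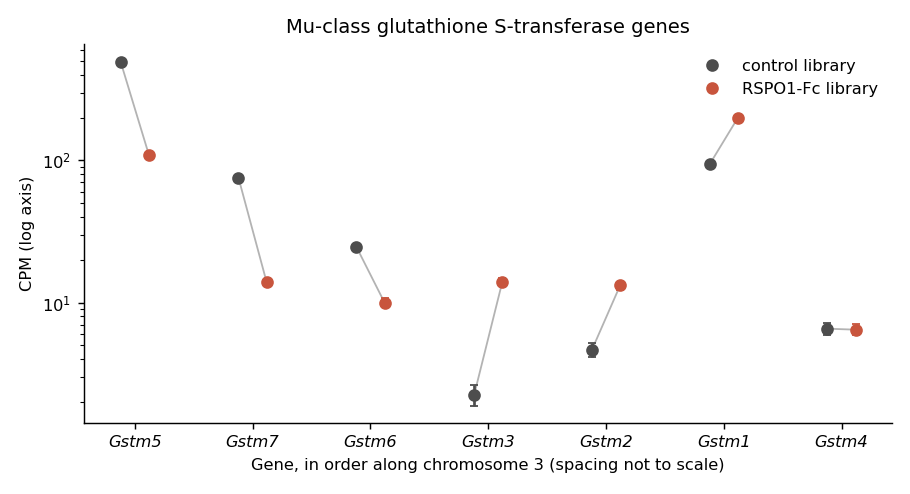
CPM (log axis) of the 7 Gstm genes in their order along chromosome 3, spacing not to scale, in the control (grey) and RSPO1-Fc (red) library, with exact 95% Poisson bars. The red point lies below the grey one for Gstm5, Gstm7 and Gstm6, above it for Gstm3, Gstm2 and Gstm1, and level with it for Gstm4.

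The 6 called Gstm genes kept their direction under each alternative scaling, cell filter and free-RNA subtraction that was run. Gstm6 alone among them dropped below 2-fold, at 1.96-fold under TMM scaling and 1.97-fold under median-of-ratios scaling. Reads of these paralogs could in principle be confused. No window of 91 bases (the read length) in the last 500 bases of the 7 transcripts matched a transcript of another gene exactly. Near-identical windows and other transcript ends of these genes were not covered. The same search found 0 of 410 windows shared for Ugt1a7c, although the Ugt1a genes share their last exons. Whether reads of the Gstm genes can be told apart was therefore not tested beyond exact matches. Gstm2 is a gene for which other cells matter: the 388 control cells with under 5 Epcam UMIs held 250 of its UMIs, at 38.6 CPM, against 4.63 CPM in the epithelial cells.

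The other glutathione S-transferases split as well. Gsto1 (ENSMUSG00000025068, chr19:47854970-47864790), an omega-class enzyme with thiol transferase and reductase activity, was at 124 CPM in control cells and 419 CPM with RSPO1-Fc, 3.38-fold higher (3.30 to 3.47). Gstp1, the pi-class enzyme abundant in many tumours, was at 12.1 and 96.3 CPM, 7.95-fold higher (7.39 to 8.56). Of the windows in the Gstp1 transcript end, 68.0% also occur in another gene, mostly Gstp2, so this count is uncertain. Gstp2 itself was below the filter, at 4.02 and 2.63 CPM. Gsta1 was at 0.67 and 10.0 CPM, 14.9-fold higher (11.04 to 20.7), but 77.6% of its windows occur in another gene, mostly Gm3776. Its level in barcodes with 101 to 500 UMIs, taken as free RNA, was 31.5 CPM in the RSPO1-Fc library, above that in the cells. With free RNA taken as 25% of UMIs, Gsta1 stood at 0 and 2.89 CPM and no longer passed the filter. It also missed the filter with free RNA taken as 10%, at 0.35 and 7.66 CPM. The same held with thinned cells, with the mean of per-cell CPM and without the 5% of cells with most UMIs.

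Gsta3, an alpha-class enzyme, moved the other way, at 104 CPM in control cells and 47.2 CPM with RSPO1-Fc, 2.20-fold lower (2.11 to 2.29), and 1.74-fold under TMM scaling. Gsta4, the alpha-class enzyme for products of lipid peroxidation, was at 79.0 and 102 CPM, a fold of 1.29 (1.24 to 1.34), and its log2 ratio of 0.36 turned to -0.14 when free RNA was taken as 25%. The theta-class genes Gstt3 and Gstt2 lie in 1 cluster on chromosome 10 and also parted. Gstt3 was at 5.98 and 20.7 CPM, 3.46-fold higher (3.09 to 3.87), and Gstt2 at 18.4 and 9.12 CPM, 2.02-fold lower (1.84 to 2.23). Gstt3 overlaps the annotated gene Gm20441 on its own strand, so reads of the pair could be split. Gstt2 was the lower call closest to the threshold and lost it at 1.60-fold under TMM scaling and at 1.92-fold without the 5% of cells with most UMIs. Gstz1, Gstk1 and Gstcd were within 2-fold.

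Ugt transcripts came mostly from 1 gene. Ugt2b34 (ENSMUSG00000029260, chr5:86889767-86906937) was at 85.5 CPM in control cells and 45.3 CPM with RSPO1-Fc, 1.89-fold lower (1.81 to 1.97), just outside the threshold, and 2.02-fold lower with a limit of 20 Epcam UMIs. It held 89.8% of the control Ugt UMIs and 87.8% of those in the RSPO1-Fc library. Its neighbour Ugt2b35 was at 8.36 and 3.76 CPM, 2.23-fold lower (1.92 to 2.59), and 1.76-fold under TMM scaling. Ugt2b36 was not seen in control cells and had 24 UMIs with RSPO1-Fc, at least 7.61-fold higher against a floor of 3 counts. The 9 Ugt1a genes, which include the bilirubin enzyme Ugt1a1, were all far below the filter, the highest being Ugt1a7c with 17 UMIs in control cells and 78 with RSPO1-Fc. They share their last exons, and 8 of the 9 had over 10% of their end windows in another gene, so their counts are uncertain. Ugt8a, the enzyme that makes galactosylceramide, had 46 and 35 UMIs.

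Sulfotransferases were scarce. Sult2b1, which sulfates cholesterol and other sterols, was the only 1 of 21 past the filter, at 14.0 CPM in control cells and 21.9 CPM with RSPO1-Fc, a fold of 1.57 (1.45 to 1.70). Sult1a1, a phenol sulfotransferase, had 101 UMIs in control cells and 0 with RSPO1-Fc, at least 35.4-fold lower against a floor of 3 counts. Sult1b1 had 184 and 28 UMIs, 6.91-fold lower (4.62 to 10.7), Sult1d1 49 and 20, and Sult4a1 47 and 32. All 4 were below the filter.

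Among the aldehyde dehydrogenases, 2 abundant metabolic enzymes were lower and the 2 retinal dehydrogenases past the filter higher. Aldh2 (ENSMUSG00000029455, chr5:121566027-121593824), the mitochondrial enzyme that clears acetaldehyde, was at 241 CPM in control cells and 85.6 CPM with RSPO1-Fc, 2.81-fold lower (2.73 to 2.90). Aldh1l1, which oxidises formyl-tetrahydrofolate in folate metabolism, was at 102 and 14.8 CPM, 6.88-fold lower (6.44 to 7.35). Aldh4a1, of proline breakdown, was at 12.5 and 4.88 CPM, 2.56-fold lower (2.25 to 2.91). On their own strands Aldh4a1 overlaps the annotated gene Gm21969, and Aldh1l1 overlaps Gm45901 and Gm44236, so reads could be split. Aldh1a3 and Aldh1a1 make retinoic acid from retinal. Aldh1a3 (ENSMUSG00000015134, chr7:66390890-66427517) was at 12.0 and 39.9 CPM, 3.33-fold higher (3.08 to 3.61). Aldh1a1, often used as a stem cell marker, was at 0.82 and 11.2 CPM, 13.7-fold higher (10.4 to 18.3), and missed the filter, at 0.51 and 8.50 CPM, with free RNA taken as 25%. Aldh1a1 passed only through the RSPO1-Fc library, so its call follows from the filter. Aldh1b1, a mitochondrial enzyme linked to intestinal stem cells, was at 15.9 and 26.4 CPM, a fold of 1.66 (1.54 to 1.80), and passed 2-fold under TMM scaling at 2.11-fold. Aldh18a1, of proline synthesis, was at 13.8 and 22.8 CPM, with a fold of 2.10 under TMM scaling. The other 5 past the filter, Aldh3a2, Aldh5a1, Aldh7a1, Aldh9a1 and Aldh16a1, were within 2-fold.

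The aldo-keto reductases were the level family: 8 of 16 passed the filter and none was called. Akr1a1 (ENSMUSG00000028692, chr4:116636510-116651680), the general aldehyde reductase, was the most abundant member of the RSPO1-Fc library, at 455 CPM in control cells and 511 CPM there, a fold of 1.12 (1.11 to 1.14). Akr1b3, the aldose reductase that turns glucose into sorbitol, was at 64.7 and 105 CPM, a fold of 1.61 (1.56 to 1.68), and was called under TMM scaling at 2.05-fold. Akr1c13 and Akr1c12, of the steroid and ketone reducing subfamily, were at 56.9 and 82.8 CPM and at 46.8 and 63.8 CPM. Akr1b8 was at 22.1 and 32.2 CPM in the epithelial cells, but at 98.3 CPM in the control cells with under 5 Epcam UMIs. Akr1e1 and Akr1c19 were lower in the RSPO1-Fc library, at 1.63-fold and 1.57-fold.

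Most P450 genes were barely seen: 10 of 96 passed the filter, 3 higher, 2 lower and 5 neither. Over all genes past the filter, 7.21% were higher and 19.1% lower. Cyp2c55, Cyp1b1 and Cyp4b1 passed only through the RSPO1-Fc library and Cyp2b10 only through the control, so their calls follow from the filter. Cyp2c55 (ENSMUSG00000025002, chr19:39007019-39042693), a fatty acid and drug oxidising enzyme of the intestine, had 22 UMIs (0.33 CPM) in control cells and 1375 UMIs (19.6 CPM) with RSPO1-Fc, 59.5-fold higher (39.1 to 95.2). Its next neighbour Cyp2c65, below the filter, had 7 and 187 UMIs. Cyp1b1 (ENSMUSG00000024087, chr17:79701537-79715061) had 57 UMIs (0.85 CPM) in control cells and 1054 (15.0 CPM) with RSPO1-Fc, 17.6-fold higher (13.5 to 23.4). Cyp1a1 and Cyp1a2 are also targets of that receptor. Cyp1a1 had 0 and 2 UMIs, too few for a direction at this depth, and Cyp1a2 had 18 and 2, 9.46-fold lower (2.26 to 84.1). Cyp4b1, a fatty acid hydroxylase, had 4 UMIs in control cells and 736 (10.5 CPM) with RSPO1-Fc, a ratio of 175 (68.1 to 644). With a limit of 20 Epcam UMIs it was at 0.06 and 9.87 CPM and missed the filter, as it did in 2 further alternatives. The 16 RSPO1-Fc cells with under 5 Epcam UMIs held 28 further Cyp4b1 UMIs. Cyp2b10 (ENSMUSG00000030483, chr7:25897620-25926624) was the reverse case, with 738 UMIs (11.03 CPM) in control cells and 20 (0.28 CPM) with RSPO1-Fc, 38.8-fold lower (24.9 to 63.9). Without cells that held a UMI of another cell type's defining markers, Cyp2b10 was at 8.67 and 0.28 CPM and missed the filter, with a fold of 30.5.

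The drug-oxidising Cyp3a genes were low throughout: Cyp3a13, the highest of them, had 56 UMIs in control cells and 488 with RSPO1-Fc, 8.29-fold higher (6.28 to 11.1) but below the filter, Cyp3a11 had 3 and 18, Cyp3a57 had 8 and 1, and Cyp3a25 had 0 and 2. Cyp4f14, a leukotriene hydroxylase, also stayed below the filter, with 43 and 370 UMIs, 8.19-fold higher (5.96 to 11.5). Cyp27a1, the sterol 27-hydroxylase of bile acid synthesis, was at 28.9 and 12.9 CPM, 2.24-fold lower (2.07 to 2.43), and 1.77-fold under TMM scaling. The epoxygenase Cyp2j6 at 33.7 and 30.0 CPM, Cyp20a1 at 20.2 in both, Cyp4f16 at 14.0 and 14.8, Cyp4f13 at 15.98 and 8.45 and Cyp39a1 at 8.31 and 5.28 were within 2-fold. With free RNA taken as 25%, Cyp4f13 was 2.13-fold lower. Cyp11a1, which starts steroid synthesis, had 62 and 4 UMIs, and Cyp17a1 had 1 and 1. At this depth the counts of 1 to 4 UMIs allow no order among these genes.

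**Figure D4:**
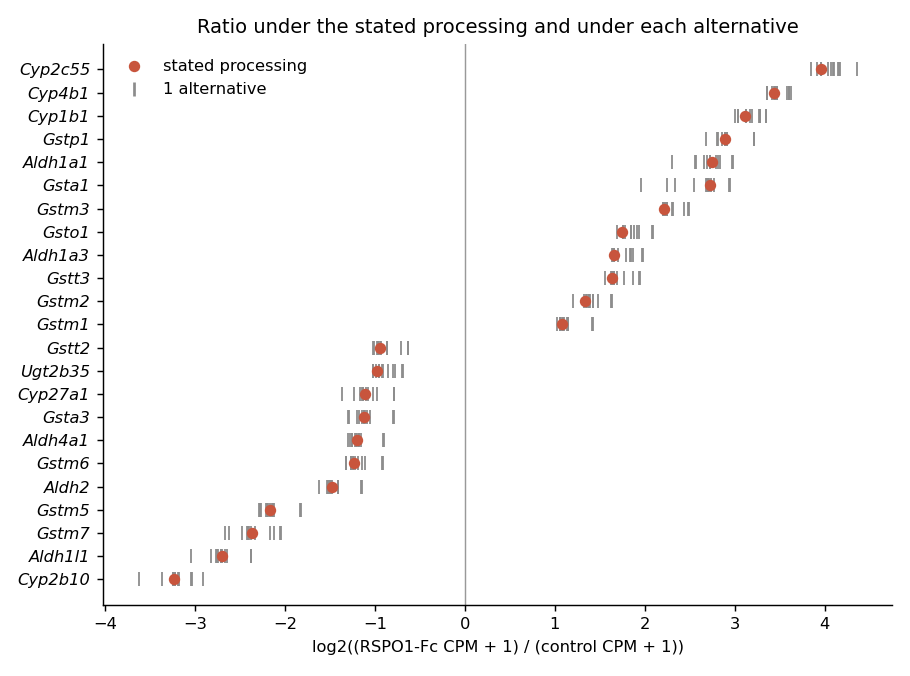
Log2 ratio of RSPO1-Fc to control CPM, with 1 CPM added to both, of the 23 called members (y axis) under the stated processing (red points) and under each alternative scaling, cell filter and free-RNA subtraction (grey ticks). No tick lies on the other side of 0 from its red point.

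The members also varied between cells of 1 library. To compare cells, each was thinned to 5960 UMIs and called positive for a gate gene at 2 or more thinned UMIs and negative at 0. The gates were Lgr5 (stem cells), Mki67 (cycling cells), Krt20 (surface cells) and Muc2 (goblet cells). They are ranges of 1 gene and not cell types, and cells are not replicates. Lgr5-positive cells numbered 239 in control cells and 19 with RSPO1-Fc, Krt20-positive cells 10 and 228, Mki67-positive cells 171 and 278, and Muc2-positive cells 14 and 0. The gate genes themselves differed between the libraries, with Lgr5 at 84.7 and 12.6 CPM, Krt20 at 3.68 and 67.6, and Muc2 at 25.2 and 0.44. The control Krt20 and Muc2 gates and the RSPO1-Fc Lgr5 gate rest on 10, 14 and 19 cells, and intervals for them cover counting error only.

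Aldh1a3 and Akr1b8 were the members at least 2-fold higher in Krt20-positive than in Krt20-negative cells of the RSPO1-Fc library. Aldh1a3 was at 98.2 and 30.8 CPM there, 3.18-fold higher (2.89 to 3.50), and Akr1b8 at 59.6 and 28.02 CPM, 2.13-fold higher (1.89 to 2.39). Gsta4 was at 155 and 92.1 CPM, 1.68-fold higher (1.56 to 1.80). In the 10 Krt20-positive control cells Aldh1a3 had 158 UMIs (374 CPM, against 8.94 in the negative ones), Akr1b8 201 (476 against 17.4) and Gsta4 241 (570 against 73.6). Gsto1 was also higher there (755 against 117 CPM), but it was at 405 and 421 CPM in the RSPO1-Fc gate. In this control gate 9 of the 50 members were at least 2-fold higher and 22 lower, beside 7.58% and 21.8% of all genes. In Lgr5-positive control cells Aldh1a3 was at 0.46 CPM (4 UMIs), against 15.7 CPM in the negative ones, 34.2-fold lower (13.3 to 126). Over all 50, 2 members were at least 2-fold higher in the RSPO1-Fc Krt20 gate and 4 lower, beside 1.56% and 3.49% of all genes. Members near 0 in a library enter the 50 only through the other one, so counts were also made over members at 5 CPM or more in the gate's own library: 2 of 47 were higher and 3 lower, beside 1.23% and 1.73%.

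Aldh1b1 behaved in the opposite way. It was at 34.8 CPM in Lgr5-positive and 11.03 CPM in Lgr5-negative control cells, 3.15-fold higher (2.72 to 3.64), and at 93.8 (35 UMIs) and 24.8 CPM with RSPO1-Fc, 3.78-fold higher (2.62 to 5.28). In Krt20-positive RSPO1-Fc cells it was 3.33-fold lower (2.53 to 4.48). Its higher level was not limited to the Lgr5 gate. In the 14 Muc2-positive control cells Aldh1b1 was at 59.4 CPM (43 UMIs), against 15.5 CPM in the negative ones, 3.83-fold higher. In Mki67-positive control cells it was 1.93-fold higher, at 25.6 against 13.2 CPM. The Mki67 gate of the RSPO1-Fc library gave 26.9 and 26.1 CPM. Aldh1b1 was the only 1 of the 50 at least 2-fold higher in the control Lgr5 gate, and 8 were at least 2-fold lower, beside 0.956% and 2.4% of all genes. Of the 43 at 5 CPM or more in the control, 1 was higher and 3 were lower (Aldh1a3, Cyp2b10 and Gstm7), beside 1.02% and 2.18%. Gstm7 was at 33.3 CPM in Lgr5-positive and 87.2 CPM in Lgr5-negative control cells, 2.62-fold lower (2.33 to 2.96). Gstm5 did not follow it there, at 476 and 489 CPM. In the 19 Lgr5-positive RSPO1-Fc cells Gstm7 was at 24.1 CPM (9 UMIs), against 13.4 CPM in the negative ones, 1.80-fold higher (0.82 to 3.44). Gstm5 was 1.65-fold higher (1.27 to 2.10) in the same gate.

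Cycling cells of the control held less of the cluster's abundant genes. Gstm5 was at 229 CPM in Mki67-positive and 564 CPM in Mki67-negative control cells, 2.47-fold lower (2.36 to 2.58), Gstm7 was 2.64-fold lower (2.34 to 2.98) and Gstm6 2.23-fold lower (1.84 to 2.73). In the RSPO1-Fc library the same gate gave 1.16-fold for Gstm5 (1.08 to 1.25) and 1.98-fold for Gstm7 (1.55 to 2.56), both lower. The opposite directions of the Gstm genes between the libraries were also seen within a gate. Among Mki67-positive cells Gstm5 was at 229 CPM in control cells and 98.9 CPM with RSPO1-Fc, and Gstm1 at 55.6 and 171 CPM. Among Mki67-negative cells Gstm5 was at 564 and 115 CPM, and Gstm1 at 103 and 211 CPM. Over the 50 members, 1 was at least 2-fold higher and 9 lower in the control Mki67 gate, beside 4.95% and 5.12% of all genes. Of the 43 at 5 CPM or more in the control, 1 (Gstcd) was higher and 6 were lower, beside 4.56% and 5.42%.

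**Figure D5:**
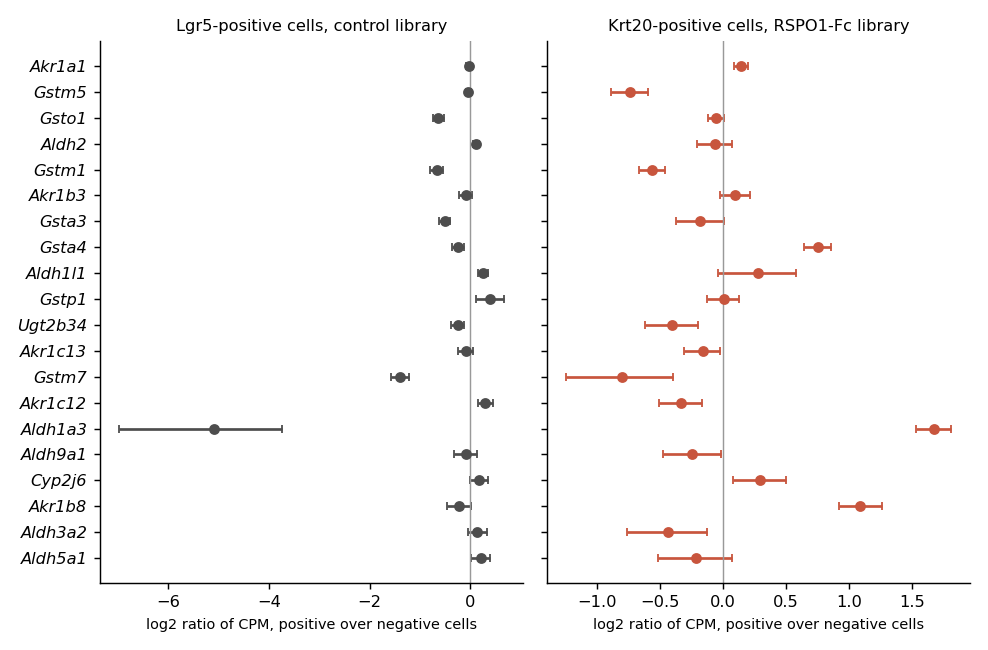
Log2 ratio of CPM in gate-positive to gate-negative cells for the 20 most abundant members, in the Lgr5 gate of the control library (left) and the Krt20 gate of the RSPO1-Fc library (right), with exact 95% bars for counting error; the x axes differ between panels. Aldh1a3 is the lowest on the left and the highest on the right.

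Some members were concentrated in few cells. The variance of thinned counts over their mean, which is 1 for pure counting, was 1.01 for Akr1a1 in control cells and 1.19 with RSPO1-Fc. It was 4.58 for Gstm5 in the control, where 1 cell held 48 thinned UMIs, and 1.94 in the RSPO1-Fc library. Aldh1a3 reached 2.97 in the control, and 55.2% of its thinned UMIs there lay in the 1% of cells with most of them. Gsta1 reached 2.57 in the RSPO1-Fc library, with 44.9% in the top 1% of cells, and Gsta4 reached 2.83. Across cells, Gstm5 went with its neighbour Gstm7, with a Pearson correlation of 0.38 over 1881 control cells and 0.31 over 2751 RSPO1-Fc cells. With Gstm1 it was 0.30 and 0.11. Each pair was counted in the same cells at equal depth, and the values are given as description only.

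The genes that regulate and supply these enzymes were split too, and the lists used were chosen with earlier results of these data known. Beside the list counts below stand 7.21% higher and 19.1% lower over all genes past the filter. Genes under 5 CPM in 1 library, such as Nr1i2, Vdr, Fmo5, Oplah, Cbs, Mgst2 and Rbp4, passed only through the other one. The list counts use the mean CPM filter alone, so such genes are included in them. The receptors and regulators had 12 of 16 past the filter, 4 higher and 1 lower. The xenobiotic receptor Nr1i2 was at 4.10 CPM in control cells and 9.60 CPM with RSPO1-Fc, the enterocyte factor Hnf4a at 35.2 and 87.2, Pparg at 8.85 and 21.3, and the vitamin D receptor Vdr at 3.66 and 8.19. Bach1, the repressor of Nrf2 target genes, was at 49.5 and 18.4 CPM, 2.69-fold lower (2.52 to 2.87). Nfe2l2 at 186 and 169 CPM, its inhibitor Keap1 at 43.5 and 37.9 and the aryl hydrocarbon receptor Ahr at 41.2 and 37.6 were within 2-fold.

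Of 20 Nrf2 targets, 18 passed, 3 were higher and 2 lower. Nqo1, the quinone reductase, was at 6.22 and 15.8 CPM, Me1 at 10.5 and 32.8 and ferritin light chain Ftl1 at 1780 and 4228 CPM. The cystine carrier Slc7a11 was at 57.7 and 15.3 CPM, and ferritin heavy chain Fth1 at 6619 and 2634. Of 3 aryl hydrocarbon receptor targets, 2 passed and 1, Nqo1, was higher, while Tiparp was at 28.3 and 29.7 CPM. Among 13 genes of glutathione supply 12 passed, none was higher and 3 were lower: Slc7a11, Oplah at 10.0 and 1.58 CPM and Cbs at 12.3 and 2.16 CPM. The glutathione peroxidase Gpx4 was at 364 and 647 CPM, within 2-fold.

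All 7 P450 partners passed and 1 was higher, the cytochrome b5 gene Cyb5b at 115 and 234 CPM, while the reductase Por was at 81.2 and 57.3, Fdx1 at 65.6 and 40.8 and Cyb5a at 188 and 289. All 9 genes of sulfate and UDP-glucuronate supply passed. The sulfate carrier Slc26a2 at 18.1 and 63.3 CPM and Ugdh, which makes UDP-glucuronic acid, at 28.2 and 73.0 were higher, Papss2, which makes the sulfate donor, was lower at 41.7 and 13.6, and Bpnt1 was at 36.1 and 64.1. Of 8 efflux pumps 6 passed, 1 higher and 2 lower. The conjugate pump Abcc2 was at 58.0 and 6.22 CPM, 9.32-fold lower (8.44 to 10.3), and Abcc4 at 83.2 and 16.05, 5.19-fold lower (4.86 to 5.53). Abcb1a was at 8.10 and 17.4 CPM and Abcc3 at 6.11 and 4.41.

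Of 30 other detoxification enzymes 19 passed, with 5 higher and 2 lower. The microsomal glutathione transferases parted: Mgst2 was at 63.6 CPM in control cells and 3.74 with RSPO1-Fc, 17.0-fold lower (15.0 to 19.3), and Mgst3 at 107 and 370, 3.45-fold higher (3.37 to 3.55). The alcohol dehydrogenase Adh1 was at 5.37 and 22.5 CPM and the flavin monooxygenase Fmo5 at 4.23 and 16.3. Of 19 retinoid genes 9 passed, 1 higher and 3 lower. The retinol carrier Stra6 was at 132.5 and 19.0 CPM, Rbp4 at 19.99 and 2.55 and the retinoic acid receptor Rarb at 37.2 and 8.31, all lower. The retinal reductase Dhrs3 at 10.7 and 30.2 was higher. Beside them the members Aldh1a3 and Aldh1a1 were higher, but Aldh1a1 passed only through the RSPO1-Fc library.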

How the data were processed

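The data are 1 control and 1 RSPO1-Fc droplet library. The authors deposited unfiltered matrices of UMI counts, every barcode included, made with Cell Ranger 2.1.1 on mm10, per the labels' protocols. The header of the control matrix names Cell Ranger 3.1.0, and its barcode list (6794880 barcodes, 31053 genes) differs from that of the RSPO1-Fc matrix (737280 barcodes, 27998 genes). The submitters' processing notes also name Seurat 3.1.1. The deposited gene tables and barcode lists gave identifiers, with no score or other value used from them.

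Barcodes with at least 9810 UMIs (control) or 5960 UMIs (RSPO1-Fc) were called cells. These limits are 0.1 times the 99th percentile of the 5000 largest barcodes. Cells with at least 5 Epcam UMIs were kept, and no doublet caller was run. UMI counts were summed over these cells, giving 66892855 and 70299300 UMIs over 27514 shared genes. Log2 ratios used a pseudocount of 1 CPM, and folds used none. Intervals are exact Poisson for levels and conditional Clopper-Pearson for ratios. A floor of 3 counts was used for a gene at 0.

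Scaling alternatives came from edgeR 4.0.16 and DESeq2 1.42.0 in R 4.3.3, and the rest from Python 3.11.15, numpy 2.4.6, scipy 1.17.1, pandas 2.3.3 and matplotlib. The scripts were tested on simulated data. Gene positions and transcript ends came from GENCODE M21 and promoters from RefSeq. Of the members, 4 carry another symbol in the RSPO1-Fc table and were matched by identifier.

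Named are the 5 most abundant members of each family, the 8 highest and 8 lowest ratios, and up to 4 genes of each other list. Cyp4v3, among the 5 most abundant Cyp4 genes, was left out of the description. Gstm2, Gstm4, Gstt2 and all else named beyond these, such as Nfe2l2, Keap1, Ahr and Vdr of the other lists, were chosen after their values were seen. The members and lists were chosen with earlier results of these data known.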

Additional observations from a re-analysis of the deposited data

How the results depend on the processing

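With 12 members higher and 11 lower, TMM scaling gave 15 and 6 and median-of-ratios scaling gave 15 and 6. The 12 higher members kept their call under both, and Cyp27a1, Gsta3, Gstm6, Gstt2 and Ugt2b35 lost theirs. No filter on low values gave 41 higher and 44 lower of 136 members, and a mean CPM of at least 20 gave 4 and 6 of 24. A CPM of at least 5 in both libraries, an alternative chosen after seeing the data, gave 5 and 8, since fewer members enter. The limit on the level in the gate's own library was chosen after seeing the data too. Under every other alternative run the counts were 9 to 12 higher and 9 to 12 lower. No called member changed direction under any alternative. Among the uncalled ones Aldh7a1, Cyp20a1, Cyp2j6, Gsta4, Gstk1 and Gstm4 did under at least 1. The summed Gst log2 ratio was -0.09 with 25% free RNA subtracted and 0.37 under TMM scaling, and the Cyp2 one 0.26 under TMM scaling; the cause was not tested. Of the single values, 556 stayed within their counting interval and 252 moved beyond it. No paired analysis was possible because each group is 1 library. Members under about 5 CPM rest on few UMIs and their order is not resolved.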
